A study of Homo sapiens with 16 samples.

Results

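The AP-1 transcription factor family was examined in LN229, a line of human glioblastoma (GBM) cells, across 16 RNA-sequencing libraries. The family was taken as its 7 FOS and JUN genes, *FOS*, *FOSB*, *FOSL1*, *FOSL2*, *JUN*, *JUNB* and *JUND*, chosen by name, and each of the 7 was listed among the 13559 genes of the first experiment and the 14024 genes of the second. In the first experiment, untreated cells were kept in the regular condition (complete medium with 10% fetal bovine serum) or in the ischemic condition, a medium of 2 mM glucose, 0.1 mM glutamine and 1% serum kept at about 1% oxygen. In the second experiment, cells in each condition received the vehicle DMSO, the p38α inhibitor VX745 or MK25, an inhibitor of MK2, the kinase directly downstream of p38α. In other experiments on this line VX745 was used at 2 µM and MK25 at 10 µM, so the inhibitors are taken here to stand at different doses. There were 8 groups of 2 libraries, all of 1 established line, and the time in the ischemic condition is not given in the sources used here. The study's cell culture data in general come from independent experiments, but the labels and the sequencing methods do not say whether the 2 libraries of a group came from separate cultures, so p-values measure the spread between libraries, which may be technical.

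AP-1 is a dimer of basic leucine zipper proteins that binds DNA at the sequence TGACTCA and at related sites. FOS proteins pair with JUN proteins, whereas JUN proteins can also pair among themselves and with ATF proteins. *FOS* and *JUN* are immediate early genes, whose mRNA rises soon after growth factors or stress activate MAP kinases, and AP-1 activity is tied to invasive, mesenchymal states of GBM. The family's subunits differ in role: *JUN* and *FOS* encode strong activators, *JUNB* and *JUND* encode JUN proteins that often act as weaker activators, and *FOSL1* (FRA-1) and *FOSL2* (FRA-2) encode FOS proteins without the strong activation domain of FOS.

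The promoters of these genes are known to carry sites for AP-1, CREB and ATF factors, so the bases just upstream of the start are shown for 4 members on which later comparisons turn, *FOSL2* for ischemia, *JUN* and *JUNB* for VX745 and *FOS* for MK25. RefSeq promoter sequences (GRCh38.p14) were matched for 6 of the 7 members, and the 140 bases before the start of 4 of them are given 5′ to 3′ on the strand of the gene. Capitals mark TGACG, the core of the cyclic AMP response element (CRE), and in *JUN* also the AP-1-like TGACATCA.
JUN (chr1:58784048-58784187, minus strand): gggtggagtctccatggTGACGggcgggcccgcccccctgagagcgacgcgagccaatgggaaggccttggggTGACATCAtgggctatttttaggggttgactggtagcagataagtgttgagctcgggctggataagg
FOS (chr14:75278688-75278827, plus strand): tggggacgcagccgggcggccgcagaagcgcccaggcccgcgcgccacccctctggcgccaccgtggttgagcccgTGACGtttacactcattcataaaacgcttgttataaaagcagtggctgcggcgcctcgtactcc
FOSL2 (chr2:28392718-28392857, plus strand): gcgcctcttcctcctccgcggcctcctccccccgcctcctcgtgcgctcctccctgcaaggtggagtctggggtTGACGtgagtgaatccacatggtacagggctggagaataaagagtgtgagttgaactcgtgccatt
JUNB (chr19:12791346-12791485, plus strand): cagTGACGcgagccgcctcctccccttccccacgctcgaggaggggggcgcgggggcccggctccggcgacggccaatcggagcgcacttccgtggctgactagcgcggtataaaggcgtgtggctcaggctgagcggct

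Searched on both strands over the 250 bases before the start, TGACG was found in 6 of these 6 promoters and in 21.2% of 35116 promoters of the same length. It began 64 bases before the start in *FOS*, 60 in *FOSB*, 66 in *FOSL2*, 123 in *JUN* and 137 in *JUNB*, and *JUN* also held TGACATCA at 67 bases, a site present in 2.37% of promoters. *JUND* held the full CRE, TGACGTCA, at 200 bases (1.65% of promoters), which overlaps TGACG on both strands. TATAAA stood 33, 30 and 31 bases before the start of *FOS*, *FOSB* and *JUNB*, and a TATA box of this kind was found in 12.8% of promoters. TGACTCA or TGAGTCA (4.2% of promoters), the CArG box that binds serum response factor (1.16%) and the ATF4 site TGATGNAA (3.14%) were in none of the 6 windows, which says nothing of sites further away. The core of the hypoxia response element, ACGTG or GCGTG, was found in *FOS*, *FOSL2*, *JUN* and *JUNB* and in 43.2% of promoters. In *FOSL2* it began 64 bases before the start and overlapped the TGACG that began at 66. These matches describe the sequence, since no binding was measured here.

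The libraries held between 20122017 and 37562668 reads on listed genes, and a count of 3 reads, taken as the floor, corresponds to a log2 value between −2.71 and −2.16. In the second experiment the ischemic libraries held 27239609 to 37562668 reads and the regular ones 20122017 to 30228774. Values are log2 normalized CPM (reads of a gene relative to the library's total, scaled between libraries), as deposited, and a difference of 1 is a fold change of 2. They are shares of the RNA of a library, so a change in the total RNA of a cell was not measured. In such bulk samples fewer cells of a kind and less RNA per cell cannot be told apart. As a check of the labels, 10 of 10 hypoxia genes rose in the ischemic condition in untreated cells and 9 of 10 in DMSO cells. The glioma markers *VIM*, *NES*, *CD44* and *S100A6* had at least 7592 reads in each library and *SOX2* at least 239, whereas the astrocyte marker *GFAP* had 21 to 55 reads and the oligodendrocyte lineage marker *OLIG2* 39 to 266. The markers *PTPRC*, *PECAM1*, *EPCAM*, *RBFOX3* and *MBP*, of blood, endothelial, epithelial, neuronal and myelinating cells, were not listed in either table.

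AP-1 mRNA in these cells was mainly *FOSL1*. To compare members, log2 values were set per kb of the MANE Select transcript, the standard transcript of each gene, and summed on the linear scale. *FOSL1* (identifier 8061, chr11:65892049-65900545, 4 exons) made up between 72.2% and 73.6% of the family's mRNA per kb in the first experiment and between 62.6% and 77.8% in the second. Among all genes with a length it lay between the percentiles 98.2 and 99.4 in every library. *JUN* (identifier 3725, chr1:58780791-58784047, 1 exon) came second by its mean in each of the 8 groups, *FOS* (identifier 2353, chr14:75278828-75282230, 4 exons) sixth and *FOSB* (identifier 2354, chr19:45467996-45475179, 4 exons) last. *FOS* had 124 to 908 reads per library and *FOSB* 28 to 138, against at least 9552 for *FOSL1*.

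The order of the middle members depended on the condition. In the 4 regular groups it was *JUNB* (identifier 3726, chr19:12791486-12793315, 1 exon), *JUND* (identifier 3727, chr19:18279694-18281622, 1 exon) and *FOSL2* (identifier 2355, chr2:28392858-28417317, 4 exons). Of their neighbours, *JUN*, *JUNB* and *JUND* overlapped between libraries in regular MK25 cells, and the others did not overlap. In the ischemic condition *FOSL2* stood at place 3 in untreated cells, 4 under VX745 and 5 under DMSO and MK25. The ranges of *JUNB* and *JUND* overlapped in ischemic untreated, DMSO and MK25 cells, in the last of these together with *FOSL2*, so their order there is not resolved.

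Summed over the 7 genes, AP-1 mRNA per kb was higher in each ischemic library than in any regular one. The sums were 315 and 319 CPM per kb in the regular untreated libraries and 754 and 804 in the ischemic untreated libraries. In the second experiment the 6 regular libraries ranged from 327 to 392 and the 6 ischemic libraries from 696 to 1039. FOS genes made up 67.1% and 69.4% of the sum in ischemic VX745 cells. In the other 14 libraries their share lay between 76.0% and 81.6%.

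**Figure D1:**
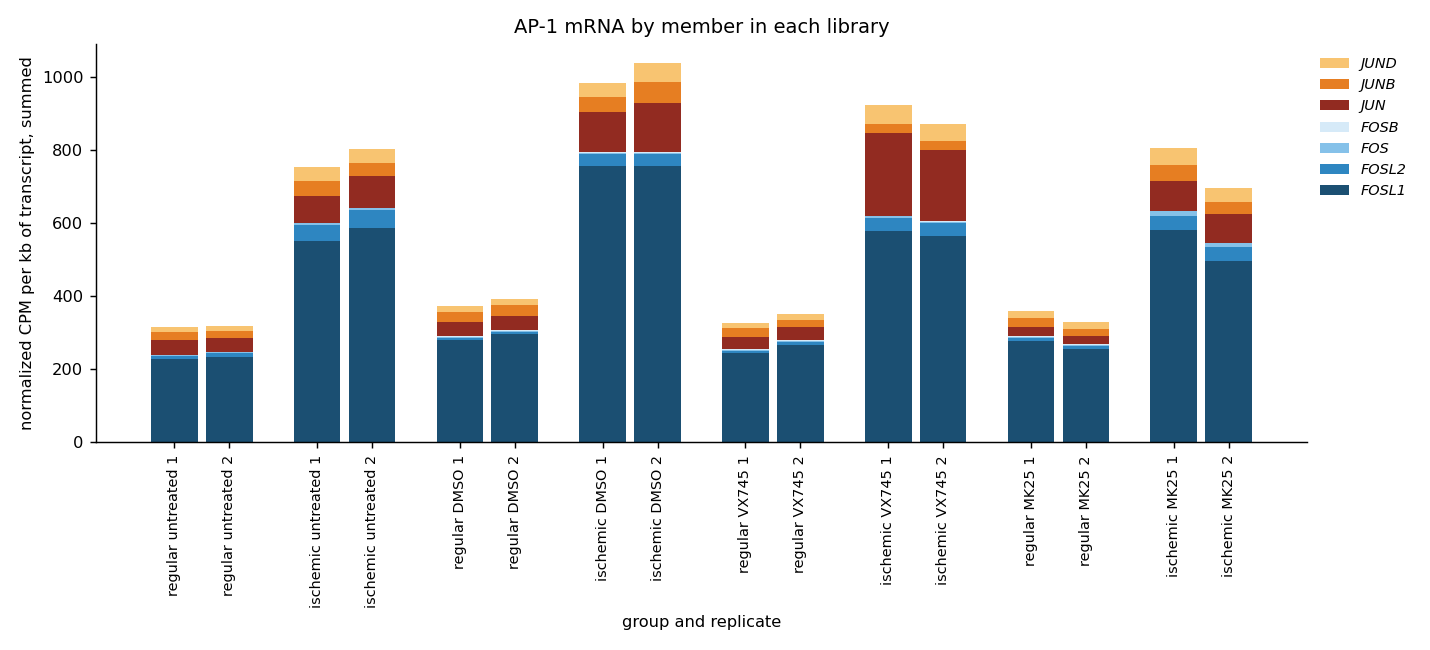
Normalized CPM per kb of transcript (vertical axis, linear) of the 7 AP-1 genes, stacked for each of the 16 libraries (horizontal axis, group and replicate number). *FOSL1* is the largest block in each bar, the ischemic bars reach 696 to 1039 and the regular bars 315 to 392, and the *JUN* block is widest in the ischemic VX745 libraries.

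The first question was how the family responds to the ischemic condition. In untreated cells *FOSL2*, *JUND*, *FOSL1* and *JUN* rose at an adjusted p below 0.05 (limma, Benjamini-Hochberg over all genes) together with a 2-fold or larger change, the criteria for a call in this contrast. Of all genes, 11.3% were called higher and 9.1% lower, against 4 and 0 of the 7 members. *FOS* and *JUNB* passed the test at a fold change under 2, and *FOSB* passed it in the opposite direction. Passing at any fold was common, with 70.4% of all genes in untreated and 69.6% in DMSO cells, against 7 of 7 members in each. In the DMSO cells of the second experiment the called members were again *FOSL2*, *JUN*, *JUND* and *FOSL1*, and 9.03% of all genes were called higher and 8.11% lower. The median difference of the 7 members was 1.07 in untreated and 1.40 in DMSO cells on the log2 scale, and that of all genes was −0.01 in each. The ischemic and regular libraries overlapped for none of the 7 members in either experiment, and they did not overlap for 85.2% of all genes in the first and 83.3% in the second.

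**Figure D2:**
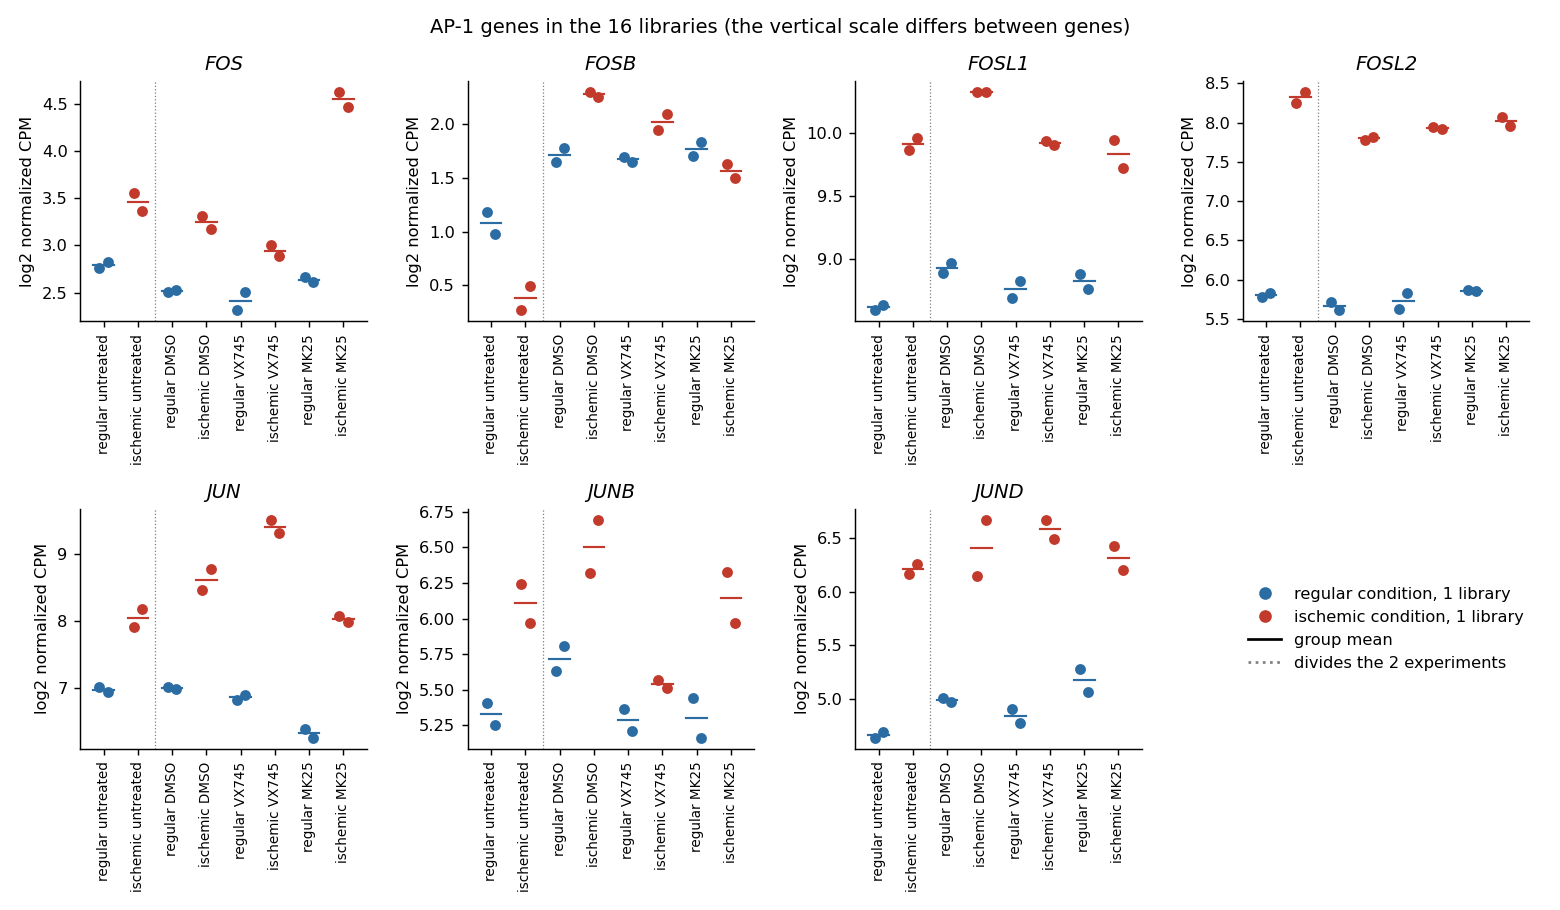
Deposited log2 normalized CPM (vertical axes, a scale for each gene) of the 7 AP-1 genes in the 8 groups (horizontal axes), with 1 point per library and a bar at the group mean. Red ischemic points lie above blue regular points of the same treatment for *FOS*, *FOSL1*, *FOSL2*, *JUN*, *JUNB* and *JUND*, but below them for *FOSB* in untreated and MK25 cells.

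*FOSL2*, whose protein FRA-2 pairs with JUN proteins, had the largest ischemic difference of the family in untreated and in DMSO cells. Its log2 values were 5.78 and 5.84 in the regular untreated libraries and 8.25 and 8.39 in the ischemic ones, a difference of 2.51 (SE 0.07, adjusted p = 3.07e-11 with limma). In DMSO cells they were 5.72 and 5.61 against 7.78 and 7.82, a difference of 2.14 (SE 0.07, adjusted p = 1.29e-14). The gap between the conditions was many times the gap between libraries of a group. Per kb, *FOSL2* went from 8.20 and 8.51 CPM in regular to 45.4 and 49.9 in ischemic untreated cells.

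*JUND*, which encodes a JUN protein present in many resting cells, followed in untreated cells. Its values were 4.64 and 4.70 in regular and 6.16 and 6.26 in ischemic untreated cells, a difference of 1.54 (SE 0.08, adjusted p = 5.89e-09). The DMSO libraries gave 5.01 and 4.98 against 6.15 and 6.67, a difference of 1.41 (SE 0.12, adjusted p = 1.89e-08). The ischemic DMSO libraries were further apart for *JUND* than those of any other group, yet both lay above every regular library.

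*FOSL1*, the most abundant member, encodes FRA-1, a protein stabilized by ERK signaling. It rose from 8.60 and 8.64 to 9.87 and 9.96 in untreated cells, a difference of 1.30 (SE 0.07, adjusted p = 6.89e-09). In DMSO cells it rose from 8.89 and 8.97 to 10.33 in both ischemic libraries, a difference of 1.40 (SE 0.07, adjusted p = 1.23e-11), which became 0.98, under a fold change of 2, after quantile normalization. These 10.33 were the highest log2 values of any AP-1 gene in the 16 libraries.

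*JUN*, the partner of FOS proteins and a substrate of the JNK kinases, rose less in untreated than in DMSO cells. It went from 7.01 and 6.94 to 7.91 and 8.18 in untreated cells, a difference of 1.07 (SE 0.09, adjusted p = 3.06e-07). Without replicate 2 of the ischemic untreated group the difference was 0.93, and after quantile normalization 0.95, both under a fold change of 2. In DMSO cells it went from 7.01 and 6.99 to 8.47 and 8.78, a difference of 1.63 (SE 0.09, adjusted p = 1.86e-11). The experiments were normalized separately, and the gap between their differences was not tested.

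*JUNB* and *FOS* passed the test with smaller differences in both experiments. *JUNB* had values of 5.41 and 5.25 in regular and 6.25 and 5.97 in ischemic untreated cells, and its difference was 0.78 (SE 0.10, adjusted p = 1.53e-05) there and 0.79 (SE 0.12, adjusted p = 1.96e-05) in DMSO cells. *FOS* had 2.76 and 2.82 against 3.56 and 3.36, and its difference was 0.67 (SE 0.13, adjusted p = 0.000606) in untreated and 0.73 (SE 0.12, adjusted p = 2.46e-05) in DMSO cells. *FOS*, the best known immediate early gene of the family, had 165 and 196 reads in the regular and 323 and 216 in the ischemic untreated libraries.

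*FOSB* differed in opposite directions in the 2 experiments. In untreated cells it had 54 and 53 reads in the regular and 31 and 28 in the ischemic libraries, log2 values of 1.18 and 0.98 against 0.27 and 0.49, and fell by 0.70 (SE 0.25, adjusted p = 0.0232). This fall did not pass without ischemic untreated replicate 1 (−0.59, adjusted p = 0.0564), regular untreated replicate 1 (−0.60, adjusted p = 0.16) or regular untreated replicate 2 (−0.80, adjusted p = 0.0675), and with 1 CPM added it was −0.44 (adjusted p = 0.0169). In DMSO cells the values were 1.64 and 1.78 in regular against 2.30 and 2.25 in ischemic libraries, and it rose by 0.56 (SE 0.16, adjusted p = 0.00389). No library of one condition overlapped the other in either experiment, which also held for 85.2% of all genes in the first and 83.3% in the second. *FOSB* lies inside the span of *ERCC1*, a DNA repair gene on the opposite strand with 2156 to 4780 reads, and the library kit does not mark strand. None of the exon bases of *FOSB* lie in an *ERCC1* exon, and *ERCC1* rose in both experiments, by 0.40 (adjusted p = 0.000193) in untreated and 0.81 (adjusted p = 2.18e-10) in DMSO cells. The part of *ERCC1* reads in the *FOSB* values was not tested.

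The same contrast was made within each inhibitor. Under VX745, *JUN*, *FOSL2*, *JUND* and *FOSL1* were called higher in ischemic cells and no member lower, where 9.28% of all genes were called higher and 5.21% lower. The difference of *JUN* was 2.56 (SE 0.09, adjusted p = 5.17e-14), from 6.82 and 6.89 in the regular VX745 libraries to 9.52 and 9.31 in the ischemic ones, the largest difference of *JUN* among the 4 treatments. *FOSL2* differed by 2.21, *JUND* by 1.73 and *FOSL1* by 1.16. *JUNB* differed by 0.25 (adjusted p = 0.0792) and *FOSB* by 0.35 (adjusted p = 0.058), and neither passed the test. Over the alternatives, *JUNB* ranged from 0.17 to 0.33 and *FOSB* from 0.20 to 0.42, and each passed under some alternative.

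Under MK25, 5 members were called higher, *FOSL2*, *FOS*, *JUN*, *JUND* and *FOSL1*, and none lower, against 8.56% and 5.34% of all genes. Among the contrasts of ischemic with regular cells, *FOS* was called in this one alone. It rose from 2.67 and 2.61 in the regular to 4.63 and 4.47 in the ischemic MK25 libraries, a difference of 1.91 (SE 0.12, adjusted p = 1.83e-10) or a fold change of 3.76. *FOS* had 132 and 138 reads against 908 and 779, in libraries of 20122017 and 21807502 reads against 37562668 and 35795468. *FOSL1* differed by 1.01 (SE 0.07, adjusted p = 1.17e-09), close to the fold threshold. Its difference was 0.90 without ischemic MK25 replicate 1, 0.95 without regular MK25 replicate 2, 0.92 after quantile normalization and 1.00, just under 1, with libraries centred on their median. *FOSB* was at 1.70 and 1.83 in regular and 1.62 and 1.496 in ischemic cells, a difference of −0.21 (adjusted p = 0.246).

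**Figure D3:**
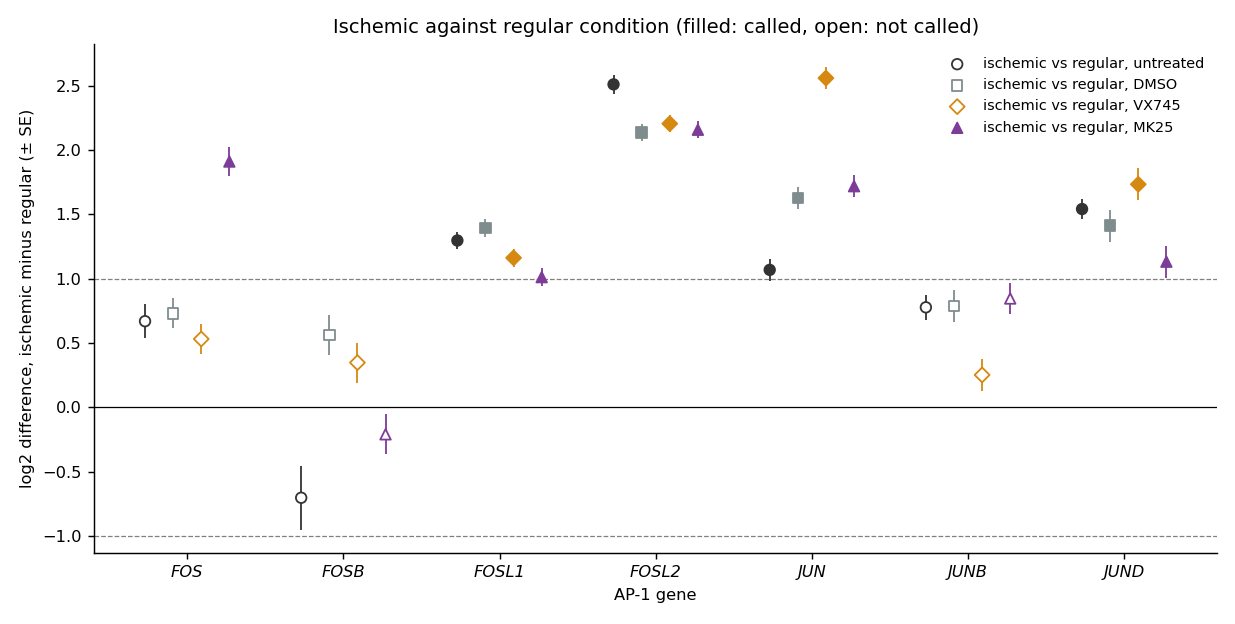
Log2 difference, ischemic minus regular, with its standard error (vertical axis) for the 7 AP-1 genes (horizontal axis) in untreated, DMSO, VX745 and MK25 cells. Filled symbols passed an adjusted p of 0.05 and the fold change of 2 drawn as dashed lines. *FOSL2* lies between 2.14 and 2.51 in all 4 treatments, *JUN* peaks at 2.56 under VX745 and *FOS* at 1.91 under MK25, and *FOSB* is on both sides of 0.

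The next question was whether the inhibitors change the family. Between treatments a call required an adjusted p below 0.05 together with a 1.5-fold or larger change. In the regular condition VX745 called none of the 7 members by limma, and 0.0642% of all genes were called higher and 0.0357% lower. Before adjustment 2 of 7 members lay below 0.05, as did 14.8% of all genes. They were *JUNB* (−0.43, limma adjusted p = 0.129) and *FOSL1* (−0.17, limma adjusted p = 0.277), and voom on the recovered reads also called 0. Over all genes 9 were called higher and 5 lower, but 7 and 7 after quantile normalization, 1 and 4 with only the groups compared, and 73 and 70 without regular DMSO replicate 1. *JUNB* had values of 5.63 and 5.80 with DMSO and 5.36 and 5.21 with VX745.

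In the ischemic condition VX745 moved the JUN genes in opposite directions. *JUN* rose from 8.47 and 8.78 with DMSO to 9.52 and 9.31 with VX745, a difference of 0.79 (SE 0.09, adjusted p = 5.11e-06) or a fold change of 1.73. *JUNB* fell from 6.32 and 6.70 to 5.56 and 5.51, a difference of −0.97 (SE 0.12, adjusted p = 2.75e-05), 1.96-fold lower. Both were called under each of the alternatives tried. So 1 member was called higher and 1 lower, where 4.35% of all genes were called higher and 0.906% lower. Genes called higher made up 82.8% of the called genes, but 62.6% after quantile normalization. *HOOK2*, which overlaps *JUNB* on the opposite strand and shares 259 of its exon bases, had a difference of 0.28 (adjusted p = 0.0688), opposite in sign to that of *JUNB*. The part of *HOOK2* reads in the *JUNB* values was not tested.

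Among the FOS genes, VX745 lowered *FOSL1* in ischemic cells by less than 1.5-fold. Its values went from 10.33 in both DMSO libraries to 9.94 and 9.91, a difference of −0.40 (SE 0.07, adjusted p = 0.000524), which was −0.10 (adjusted p = 0.316) after quantile normalization. *FOS* had 3.32 and 3.18 with DMSO and 3.004 and 2.885 with VX745 (difference −0.30, adjusted p = 0.0596). Over the alternatives this difference ranged from −0.43 to −0.23, and it passed under some alternative. The differences of *FOSB* (−0.26), *FOSL2* (0.14) and of the JUN gene *JUND* (0.17) had an adjusted p between 0.134 and 0.324. Per kb, the share of *JUN* in the family went from 11.1% and 13.0% with DMSO to 24.4% and 22.4% with VX745.

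The difference between the VX745 effects in the 2 conditions was tested as an interaction, called at an adjusted p under 0.05 with any fold. *JUN* had an interaction of 0.93 (SE 0.12, adjusted p = 0.000232), since VX745 changed it by −0.14 (adjusted p = 0.458) in regular cells. It was the 1 member called higher and no member was called lower, against 5.78% and 6.0% of all genes. *JUNB* had an interaction of −0.54 (SE 0.17, adjusted p = 0.0542). That of *JUNB* passed when libraries were centred on their median (adjusted p = 0.041), when genes under 1 CPM were left out (0.0472), when only the 4 groups compared were fitted (0.0264), and without ischemic DMSO replicate 1 (−0.73, adjusted p = 0.0211). Without ischemic DMSO replicate 2, *JUND* passed instead (0.58, adjusted p = 0.0188).

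MK25 lowered *JUN* in both conditions. In regular cells *JUN* went from 7.01 and 6.99 with DMSO to 6.39 and 6.25, a difference of −0.68 (SE 0.09, adjusted p = 4.02e-05). It was the 1 member called lower there, none was called higher, and 1.88% of all genes were called higher and 0.606% lower. *JUNB* passed the test with −0.42 (SE 0.12, adjusted p = 0.0338), from 5.63 and 5.80 to 5.44 and 5.16. It did not pass without regular MK25 replicate 2 (−0.28, adjusted p = 0.23) or regular DMSO replicate 2 (−0.33, adjusted p = 0.242), with no variance trend (adjusted p = 0.163) or by voom (adjusted p = 0.0657). At any fold 2 of 7 members and 12.2% of all genes passed. The other 5 members had differences between −0.11 and 0.19, with *FOSL2* closest to the threshold (adjusted p = 0.0618). In the same regular cells MK25 raised 7 of the 10 hypoxia genes, with a median of 1.19 over the list and the largest called rises for *CA9* (2.97) and *ANKRD37* (2.02), and the part of this in the AP-1 values was not tested.

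In ischemic cells MK25 raised *FOS* and lowered *FOSB* and *JUN*. *FOS* went from 3.32 and 3.18 with DMSO to 4.63 and 4.47, a difference of 1.30 (SE 0.12, adjusted p = 2.3e-07) or a fold change of 2.46. Its reads went from 243 and 264 to 908 and 779, in libraries of 27239609 and 32850374 reads against 37562668 and 35795468. *FOSB* went the other way, from 2.30 and 2.25 to 1.62 and 1.496, a difference of −0.71 (SE 0.16, adjusted p = 0.00151), which was −0.56, under the fold threshold, with 1 CPM added. The groups overlapped for neither gene, but the share of all genes for which this held was not counted. With 1 member called higher and 2 lower, the shares over all genes were 7.02% and 2.65%. Of the called genes 72.6% were higher, but 56.4% after quantile normalization. *ERCC1*, around *FOSB*, fell by 0.44 (adjusted p = 4.29e-06).

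*JUN* in ischemic cells went from 8.47 and 8.78 with DMSO to 8.08 and 7.99 with MK25, a difference of −0.59 (SE 0.09, adjusted p = 4.29e-05) at a fold change of 1.5, at the threshold. Without ischemic DMSO replicate 2 the difference was −0.43, without ischemic MK25 replicate 2 −0.54, after quantile normalization −0.41, and with 1 CPM added −0.58, each under the fold threshold with an adjusted p still below 0.05. *FOSL1* (−0.49, adjusted p = 4.03e-05), *JUNB* (−0.36, adjusted p = 0.0263) and *FOSL2* (0.22, adjusted p = 0.0141) passed the test under a fold change of 1.5, so that 6 of 7 members passed at any fold, against 41.7% of all genes. *FOSL1* was at −0.18 (adjusted p = 0.0456) after quantile normalization and at −0.60, past the fold threshold, without ischemic MK25 replicate 1. The libraries of *JUNB* overlapped, and it did not pass without ischemic MK25 replicate 2 (−0.18, adjusted p = 0.33) or ischemic DMSO replicate 2 (−0.17, adjusted p = 0.345), after quantile normalization (−0.29, adjusted p = 0.0764) or with no variance trend (adjusted p = 0.119), while without ischemic DMSO replicate 1 it was at −0.55. *FOSL2* did not pass without ischemic MK25 replicate 1 (0.16, adjusted p = 0.143) or ischemic DMSO replicate 1 (adjusted p = 0.083), or with no variance trend (adjusted p = 0.0547). For *JUND* the difference was −0.10 (adjusted p = 0.555).

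Tested as an interaction, the MK25 effect on *FOS* was 1.18 higher in ischemic than in regular cells (SE 0.16, adjusted p = 8.5e-05), where its regular difference was 0.12 (adjusted p = 0.538). The interaction was −0.77 for *FOSB* (SE 0.22, adjusted p = 0.0169) and −0.38 for *FOSL1* (SE 0.10, adjusted p = 0.0102). So 1 member was called higher and 2 lower, against 10.5% and 13.9% of all genes. The 2 lower calls were not kept in every fit that left out 1 library. *FOSB* lost its call without ischemic MK25 replicate 2 (−0.71), ischemic DMSO replicate 1 (−0.75) or regular MK25 replicate 2 (−0.71). Over all such fits its interaction ranged from −0.84 to −0.70. *FOSL1* lost its call without ischemic MK25 replicate 2 (−0.27). After quantile normalization the interaction of *FOSL1* was −0.06 (adjusted p = 0.717), and it did not pass with no variance trend (adjusted p = 0.0623). That of *JUN* was 0.09 (adjusted p = 0.612). *JUND* had an interaction of −0.28 (SE 0.18, adjusted p = 0.265), which was −0.54 without ischemic DMSO replicate 1. Of the 10 hypoxia genes, 9 had a called interaction, each of them lower, and their part in these values was not tested.

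**Figure D4:**
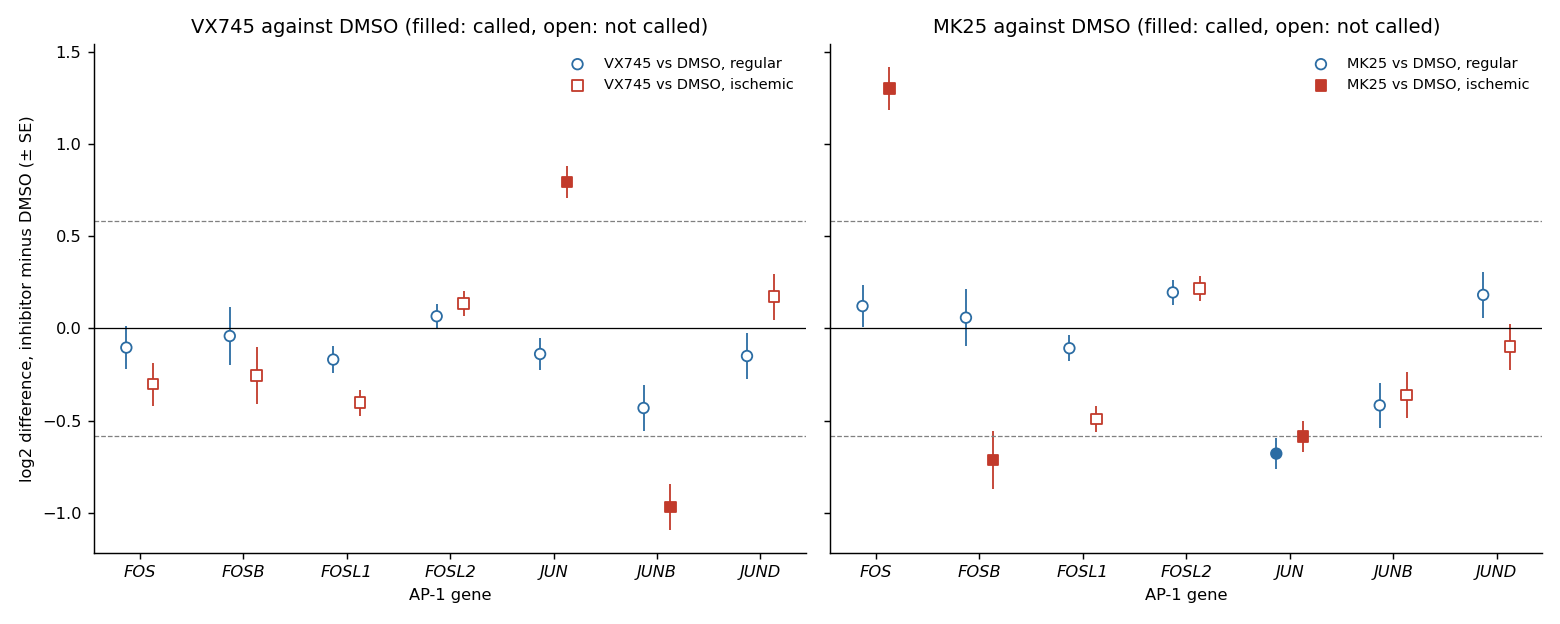
Log2 difference, inhibitor minus DMSO, with its standard error (vertical axis) for the 7 AP-1 genes (horizontal axis), with VX745 at left and MK25 at right, regular cells in blue and ischemic cells in red. Filled symbols passed an adjusted p of 0.05 and the fold change of 1.5 drawn as dashed lines. In ischemic cells *JUN* is at 0.79 and *JUNB* at −0.97 with VX745, and *FOS* is at 1.30 with MK25.

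The inhibitor contrasts within a condition share the DMSO libraries, so the ischemic MK25 and VX745 libraries were also compared directly, at their different doses. *FOS* was higher with MK25 by 1.60 (SE 0.12, adjusted p = 2.79e-08), *JUNB* higher by 0.61 (SE 0.12, adjusted p = 0.0019) and *JUN* lower by 1.38 (SE 0.09, adjusted p = 4.46e-09), where the fold change of *JUN* was 2.6. These 2 higher members and 1 lower member stand beside 1.75% and 2.2% of all genes. The difference of *JUNB* was 0.43 (adjusted p = 0.052) without ischemic MK25 replicate 1 and 0.58 (adjusted p = 0.023), under a fold change of 1.5, without ischemic VX745 replicate 2. *FOSB* was at −0.46 (adjusted p = 0.0502), *JUND* at −0.27 (adjusted p = 0.151), *FOSL1* at −0.09 (adjusted p = 0.44) and *FOSL2* at 0.08 (adjusted p = 0.442). Over the alternatives *FOSB* ranged from −0.53 to −0.35, and it passed under some alternative.

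For each member, the genes with the most similar values over the 12 libraries of the second experiment were named by Pearson's r among 10053 genes averaging 3 or more on the log2 scale. These r describe libraries that share the split into ischemic and regular cells and the difference in depth between them. For *FOSL2* they were *AKNA*, *IRF2BP2* and *AFAP1L1*, with r of 0.998 to 0.999. *FOSL1* was closest to *RELA*, which encodes an NF-κB subunit, then *P4HB* and *SLC1A5* (each 0.995). *JUN* was closest to *GADD45A*, a stress-induced growth arrest gene (0.995), then *GLIS3* (0.990) and *ZNF598* (0.985), and *JUND* to *MID1IP1* (0.989), *GYPC* (0.985) and *PDLIM1* (0.982). For the remaining 3 members r was lower. *FOS* was closest to *MAP3K12* (0.980), *IGFBP5* (0.969) and *CDON* (0.964), *FOSB* to *KIAA0040* (0.952), *BTBD10* (0.939) and *ZMYND11* (0.925), and *JUNB* to *AKAP8L* (0.927), *SLC4A2* (0.923) and *CCNL1* (0.914). Between members, r was highest for *FOSL2* with *JUND* (0.970) and lowest for *FOS* with *FOSB* (−0.14).

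Other bZIP genes, whose proteins can pair with AP-1 subunits or compete for similar sites, were mostly higher where they were called with ischemia. Of 10 measured genes, 4 rose and 1 fell in untreated cells and 5 rose and 0 fell in DMSO cells, with list medians of 0.96 and 0.89. The shares over all genes were 11.3% higher and 9.1% lower in untreated cells, and 9.03% and 8.11% in DMSO cells. *MAF* had the largest rise in untreated cells, from 5.11 ± 0.08 to 7.31 ± 0.27 (SD, n = 2 each), and the small MAF genes *MAFF* (2.11 and 1.95) and *MAFK* (2.05 and 1.86) were called in both experiments. *BATF3* fell in untreated cells by 1.42. With MK25 in ischemic cells, *BATF2* (0.92) and *MAF* (0.82) rose, and *BATF3* (−0.65) and *ATF3* (−0.98) fell. There 7.02% of all genes were called higher and 2.65% lower. *ATF3* encodes a stress-induced partner of JUN proteins, and its values went from 5.40 ± 0.13 to 4.42 ± 0.04. With VX745 in ischemic cells *BATF2* was called higher (1.41), and none lower, against 4.35% and 0.906% of all genes.

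The mRNAs of kinases and promoter-binding factors that act on AP-1 genes were looked at next. Of 24 measured in the second experiment, 3 rose and 1 fell with ischemia in DMSO cells, where 9.03% of all genes were called higher and 8.11% lower. Of 23 in the first, 4 rose and 1 fell in untreated cells, against 11.3% and 9.1% of all genes. *RPS6KA2*, which encodes a kinase of the RSK family, rose by 3.25 in untreated and 2.78 in DMSO cells, and *MAPK7*, which encodes ERK5, by 2.38 and 1.97. *RPS6KA1*, a further RSK gene, fell by 1.09 in untreated cells. In ischemic cells MK25 lowered 1 gene, *RPS6KA3* (−0.65), and VX745 raised 1, *MAPK13* (0.96, a gene at a mean log2 value of −1.12 with DMSO, named after its value was seen), which was not called in any fit that left out a library. Over all genes, 2.65% were called lower with MK25 in ischemic cells and 4.35% higher with VX745. The genes of the inhibited kinases were looked at by choice. *MAPK14*, which encodes p38α, had a difference of 0.39 with VX745 in ischemic cells (adjusted p = 8.72e-05), and *MAPKAPK2*, which encodes MK2, of −0.15 with MK25 (adjusted p = 0.053), both under a fold change of 1.5.

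A further list held genes that control the decay of AP-1 mRNA and protein. Of 10 measured, 2 rose and 0 fell with ischemia in untreated and in DMSO cells. Over all genes, 11.3% were called higher and 9.1% lower in untreated cells, and 9.03% and 8.11% in DMSO cells. *ZFP36*, which encodes tristetraprolin, a protein that binds AU-rich mRNAs such as that of *FOS*, rose by 1.37 in untreated and 1.49 in DMSO cells, and the second called gene was *DET1* (1.07) in the former and *ZFP36L1* (1.03) in the latter. Neither inhibitor moved a gene of this list past the criteria in ischemic cells by limma or by voom, but 2 were lower with MK25 without ischemic MK25 replicate 1. The shares over all genes in ischemic cells were 4.35% higher and 0.906% lower with VX745, and 7.02% and 2.65% with MK25. In regular cells MK25 lowered *ZFP36* (−0.71, adjusted p = 0.000461), where 0.606% of all genes were called lower.

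Immediate early genes outside the family were called lower with MK25 where *FOS* was called higher. Of 22 measured genes, 9 rose and 2 fell with ischemia in untreated cells and 9 rose and 1 fell in DMSO cells. The shares over all genes were 11.3% higher and 9.1% lower in untreated cells, and 9.03% and 8.11% in DMSO cells. *DUSP1*, a phosphatase gene that limits MAP kinase activity, rose by 3.50 in untreated and 3.87 in DMSO cells. The ischemic untreated libraries were far apart for *DUSP1* (6.07 ± 0.79) and for *EGR1* (5.39 ± 1.83). With ischemia *EGR1* differed by 0.06 in untreated (limma adjusted p = 0.93) and 2.36 in DMSO cells (limma adjusted p = 4.14e-12). In ischemic cells MK25 lowered 11 of the 22 and raised none (1 after quantile normalization), with a list median of −0.57. There 2.65% of all genes were called lower and 7.02% higher. *EGR1*, a zinc finger factor that is often induced together with *FOS*, fell from 6.95 ± 0.03 to 4.57 ± 0.07 (difference −2.37, SE 0.11, adjusted p = 1.37e-10), whereas *FOS* rose in the same libraries. *DUSP5*, a phosphatase gene induced by ERK, fell by 1.29. VX745 in ischemic cells lowered 4 genes, with *NR4A2* (−1.44) and *NR4A1* (−1.39) at the end, and raised *CCN2* (0.82). With it 0.906% of all genes were called lower and 4.35% higher. In regular cells 0.0642% of all genes were called higher and 0.0357% lower with VX745, and 1.88% and 0.606% with MK25. Neither inhibitor moved any of the 22 in regular cells by limma or by voom, but 1 gene was lower with MK25 without regular MK25 replicate 1, regular MK25 replicate 2 or regular DMSO replicate 2.

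Genes known as AP-1 targets were also called lower with MK25 in ischemic cells. Of the 26 listed, 22 were measured in the second experiment and 21 in the first, and *VEGFA* is also a hypoxia gene and *CD44* also a glioma marker in the lists used here. With ischemia 10 rose and 1 fell in DMSO cells, and 8 rose and 3 fell in untreated cells. The shares over all genes were 9.03% higher and 8.11% lower in DMSO cells, and 11.3% and 9.1% in untreated cells. *PTGS2*, which encodes cyclooxygenase 2, had the largest rises, of 5.32 in untreated and 4.08 in DMSO cells, followed by *VEGFA*. *CCND1*, the cyclin D1 gene, fell by 1.55 and 1.07.

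MK25 in ischemic cells lowered 11 of the 22 targets and raised none, with a median of −0.49. There 2.65% of all genes were called lower and 7.02% higher. *MMP1*, a collagenase gene with a classical AP-1 site, fell from 2.72 ± 0.27 to 1.48 ± 0.04 (difference −1.24, SE 0.19, adjusted p = 7.13e-05), and *CXCL8*, which encodes a neutrophil chemokine, from 8.86 ± 0.07 to 7.63 ± 0.14 (−1.23, SE 0.08, adjusted p = 9.38e-09). Across the alternatives, between 9 and 11 targets were lowered and 0 raised. VX745 lowered 5 and raised 1, with *CXCL8* (−1.39) and *PTGS2* (−1.07) lowest among genes above 1 CPM on average and *HBEGF*, an EGF receptor ligand, raised by 0.78. With VX745, 0.906% of all genes were called lower and 4.35% higher in ischemic cells. Without ischemic DMSO replicate 2, VX745 raised 3 targets. In regular cells MK25 raised 3, led by *VEGFA* (0.92) and *MMP1* (0.66), and lowered *IL1B* (−0.64), but without regular MK25 replicate 1 it raised 1 and lowered none. VX745 lowered *CXCL8* there (−0.65, adjusted p = 0.00112), the 1 target called, and 2 were lowered without regular VX745 replicate 2 and without either regular DMSO replicate.

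Compared directly in ischemic cells, MK25 left 5 of the 22 targets lower than VX745 and none higher, with *MMP1* (−1.78) and *HBEGF* (−1.47) lowest among genes above 1 CPM on average. It also left 9 of the 22 other immediate early genes lower, with *EGR1* (−1.82) and *MYC* (−1.26) lowest, and 2 higher, *NR4A2* (0.73) and *KLF10* (0.65). Over all genes, 2.2% were called lower and 1.75% higher with MK25 than with VX745. Tested as an interaction, the MK25 effect was lower in ischemic than in regular cells for 15 targets and higher for none. For the other immediate early genes these counts were 12 lower and 1 higher. In this test 13.9% of all genes were called lower and 10.5% higher.

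**Figure D5:**
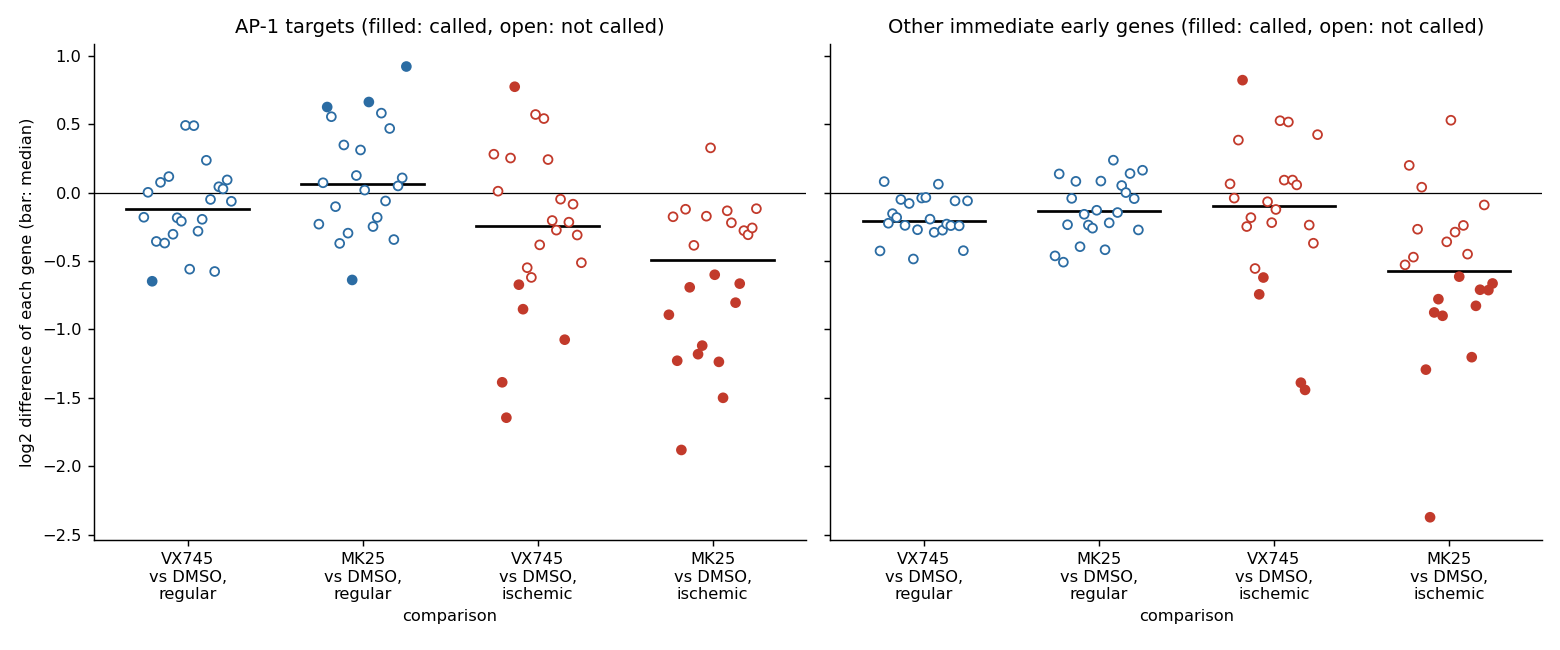
Log2 difference, inhibitor minus DMSO (vertical axis), of each measured AP-1 target (left) and other immediate early gene (right) in 4 comparisons (horizontal axis), with regular cells in blue, ischemic cells in red and a black bar at the list median. Filled points passed an adjusted p of 0.05 and a fold change of 1.5, and for MK25 in ischemic cells 11 genes of each list are filled, all below 0. Over all genes, 2.65% were called lower in that comparison.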

How the data were processed

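RNA of LN229 cells was sequenced by the authors after a SMART-Seq kit, and the submitters' processing notes name HISAT2, edgeR and GRCh38. The authors deposited log2 normalized CPM for each gene, by Entrez identifier, in 1 table per experiment, and these log2 values were used as deposited. How reads were counted on overlapping genes is not given in the sources used here. Symbols were matched for 99.4% and 99.3% of identifiers. To recover reads, the logarithm was undone, an offset fitted for each library was subtracted, and the rest was divided by a fitted CPM per read. This gave values within 0.1 of whole reads for 100.0% of entries in every library. Reads and depth (22346073 to 28373993 and 20122017 to 37562668 reads per library in the 2 tables) come from these steps. The offset was 1.49 to 2.62 reads and remains in the log2 values, where it weighs most on genes with few reads. Intervals from reads would cover counting error only, so none are given.

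Each table was fitted with limma 3.58.1 in R 4.3.3 (1 mean per group, variance trend on expression), two-sided, with Benjamini-Hochberg adjustment over all genes of a comparison, and no filter. The study's methods name a count test, which was not run here. The main fit took the log2 values as deposited, and the recovered reads were fitted with voom as an alternative. Called genes had an adjusted p below 0.05 together with a 2-fold or larger change for ischemia, a 1.5-fold or larger change between treatments, or any change for interactions. The model was tested on simulated data. Lengths and positions came from GENCODE v44 MANE Select transcripts, and per-kb levels are CPM divided by that length.

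The 7 members, the gene lists and the comparisons were chosen with earlier results of these data known, so no list was tested as a set. Named genes were the members, for each list up to 2 called genes with the largest rise and 2 with the largest fall (mean log2 value of at least 0), and for each member the 3 most similar genes. Alternatives were quantile normalization, centring on the median, 1 CPM added, a mean of at least 1 CPM, no variance trend, a replicate block, the compared groups alone, voom on recovered reads, any fold, and each library left out. Figures were drawn with Python 3.11.15 and matplotlib 3.10.9.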

Additional observations from a re-analysis of the deposited data

Results flagged for a closer look

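For 4 members, the effect of an inhibitor differed between ischemic and regular cells in a direct test of the difference (limma interaction, log2 scale). For VX745, 1 member was called higher and 0 lower, against 5.78% and 6.0% of all genes. For MK25, 1 was called higher and 2 lower, against 10.5% and 13.9% of all genes. *JUN* responded to VX745 with a value 0.9333 higher in ischemic cells (adjusted p = 0.000232). *FOS* responded to MK25 with a value 1.1801 higher in ischemic cells (adjusted p = 8.5e-05), and *FOSB* (−0.7727, adjusted p = 0.0169) and *FOSL1* (−0.3833, adjusted p = 0.0102) with lower values. The *JUN* and *FOS* results passed under each alternative tried, and those of *FOSB* and *FOSL1* did not.

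*FOSB* changed with ischemia by −0.7017 in untreated and by 0.5639 in DMSO cells, and in each experiment both ischemic libraries lay on the same side of both regular ones. The fall in untreated cells did not pass the test without ischemic untreated replicate 1 or either regular untreated replicate. The difference between the experiments was not tested, since they were normalized separately.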

How the results depend on the processing

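Over the alternatives, 928 comparisons of the members' differences kept their direction and their side of the criteria for a call, 8 met criteria they had missed, 20 no longer met them and 17 changed sign. The calls of *JUN* and *JUNB* with VX745 in ischemic cells, *FOS* with MK25 in ischemic cells, *JUN* with MK25 in regular cells, and *FOSL2* and *JUND* with ischemia held in each one. With any fold allowed, 7 members passed in untreated and 7 in DMSO cells with ischemia, 2 with MK25 in regular and 6 in ischemic cells, where 70.4%, 69.6%, 12.2% and 41.7% of all genes passed. Apart from interactions, some differences that did not pass in the main fit passed the test under some alternative. With VX745 in ischemic cells these were *FOS*, *FOSB*, *FOSL2* and *JUND*. With MK25 they were *FOSL2* in regular and *JUND* in ischemic cells. With ischemia they were *JUNB* and *FOSB* under VX745 and *FOSB* under MK25. Between the inhibitors they were *FOSB* and *JUND*. With 1 CPM added, 1 member was called with MK25 in ischemic cells. For the VX745 interaction 2 members were called with libraries centred on their median, with genes under 1 CPM left out and with only the groups compared. Leaving out 1 library gave 1 to 2 members for that interaction and 1 to 3 for the MK25 interaction. The replicate block left each count of members as it was (such as 4 with ischemia in untreated cells and 3 with MK25 in ischemic cells). Libraries with the same number did not deviate together (r = 0.185 in the first experiment and −0.104 to 0.178 in the second), so the number was not taken as a pairing.

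The changes of sign all concerned differences that did not pass the test. The VX745 interaction of *FOSL1* was 0.0761 after quantile normalization. Leaving out 1 library gave, with VX745, −0.1094 to 0.0263 for *FOSB* and −0.0315 to 0.163 for *FOSL2* in regular cells, and −0.0905 to 0.4333 for *JUND* in ischemic cells. With MK25 it gave −0.0098 to 0.1259 for *FOSB* in regular and −0.3607 to 0.1631 for *JUND* in ischemic cells. Interactions ranged from −0.028 to 0.1665 for *FOSL2* with VX745, and with MK25 from −0.0346 to 0.0782 for *FOSL2*, −0.0609 to 0.2474 for *JUN* and −0.1323 to 0.2464 for *JUNB*. *FOSL1* between the inhibitors ranged from −0.2004 to 0.0232. The causes were not tested. Fits that left a group with 1 library assume that it varies like the others. Depth limits *FOSB* most, at 28 to 138 reads.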
